A study of Mus musculus with 2 samples.

Results

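The genes described here act in the assembly and remodelling of lipoproteins, in their uptake by receptors, including a receptor chaperone, and in the export of cholesterol from cells. They are Lpl, Lcat, Pltp, Mttp, Vldlr, Lrp1, Lrpap1, Abca1 and Abcg1. Their probe sets were those whose platform annotation names 1 of these genes alone. The 9 genes were read by 20 probe sets, out of 12393 genes named alone by 1 or more probe sets. All 9 genes reached the minimum signal of 80 on at least 1 array with their brightest probe set, as did 5911 genes in all.

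The data are hepatic expression profiles from 2 Affymetrix arrays, 1 per diet. The design text describes 12 female mice, 2 months old, homozygous apoE KO on a C57BL/6J background, with 6 mice on each diet. For 4 weeks 1 group ate chow supplemented at 10% (w/w) with an olive oil to which maslinic acid, a triterpene of olive skin, had been added. The other group ate the same chow with olive oil at 10% (w/w). Both arrays carry the same knockout label, which the Apoe signals below put in doubt for the maslinic acid array, and no array of wild-type mice or of mice on plain chow was analysed here. The sources used here do not say whether an array holds RNA pooled from several mice. No difference below has a replicate check.

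Lipoproteins carry triglyceride and cholesterol ester between the gut, the liver and other tissues. In the hepatocyte, microsomal transfer protein loads lipid onto apolipoprotein B, and very low density lipoprotein is secreted. Lipases then strip triglyceride from the particles in plasma, transfer proteins and an acyltransferase reshape high density lipoprotein, and receptors that largely recognise apolipoprotein E clear the remnants. ABC transporters move cholesterol and phospholipid out of cells onto apolipoprotein A-I and high density lipoprotein, the first step of reverse cholesterol transport. Several of these genes are textbook targets of the liver X receptors, which sense oxysterols, or of the farnesoid X receptor, which senses bile acids.

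The knockout label was checked first. Apoe had a signal of 7630.0 on the maslinic acid array and 407.7 on the olive oil array, a log2 ratio of 4.23. With 1 probe set and unknown probe positions, whether intact Apoe RNA was present cannot be told, but the higher value goes against the label. Every direction below is therefore between the arrays as labelled, and none could be recomputed without either array. Of the hepatocyte markers with a value, all 8 were measured, with a summed signal of 58279 on the maslinic acid array and 65950 on the olive oil array. By their brightest probe sets all 8 were lower on the maslinic acid array, as were 3074 of all 5911 measured genes. Another measured probe set of Hnf4a was higher, at 0.64. The median log2 ratio of the 8 markers was -0.18. With quantile normalization that median was -0.07 and with the loess trend removed -0.09, all 8 still being lower. Ttr, the transthyretin gene and the brightest of them, had 10267 on the maslinic acid array and 12031 on the olive oil array. The brightest genes as a whole also lay lower there, with a median log2 ratio of -0.07 over 360 genes with a mean signal of 2560 or more. All 7 striated muscle markers and all 5 cholangiocyte markers lay under the floor of 40 on both arrays. In bulk liver, fewer cells of a type and less RNA per cell cannot be told apart.

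As a group the 9 genes did not lie to one side. By their brightest probe sets, 5 genes were higher and 4 were lower on the maslinic acid array, with a median log2 ratio of 0.02 against -0.01 over all measured genes. The log2 ratios ran from -0.47 for Abcg1 to 0.62 for Pltp. Of the 9 genes, 1 was at least 1.5-fold higher, namely Pltp, beside 1.47% of all measured genes. None of the 9 was at least 1.5-fold lower, beside 1.57% of measured genes. None was 2-fold apart in either direction, a size that 0.305% of measured genes reached upward and 0.305% downward. Pltp and Vldlr lay above, and Abcg1 lay below, the central 90% of genes in their own band of signal, while the remaining 6 genes lay inside it.

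The only repeat measurement is technical, from several probe sets of 1 gene on the same hybridisation. Over 1815 genes with at least 2 measured probe sets, the log2 ratios of a gene's probe sets had a pooled SD of 0.23. The absolute log2 ratios of Pltp, Vldlr and Abcg1 were larger than this SD, and those of the remaining 6 genes were smaller. Over all measured genes the 5th and 95th percentiles of the log2 ratio, -0.36 and 0.36, also lay beyond it. The SD holds no spread between mice, so passing it is no sign of a diet difference. Of the 6 genes with several measured probe sets, 4 had the same sign throughout, namely Pltp, Mttp, Vldlr and Lrpap1, beside 47.9% of such genes in the whole table. That share was not matched for the number of probe sets per gene. Vldlr and Lrpap1 each count a probe set that reached the minimum on the maslinic acid array alone, where it was higher. Abca1 and Lpl had probe sets of opposite sign. The plot of signals by probe set shows these pairs beside each other.

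**Figure D1:**
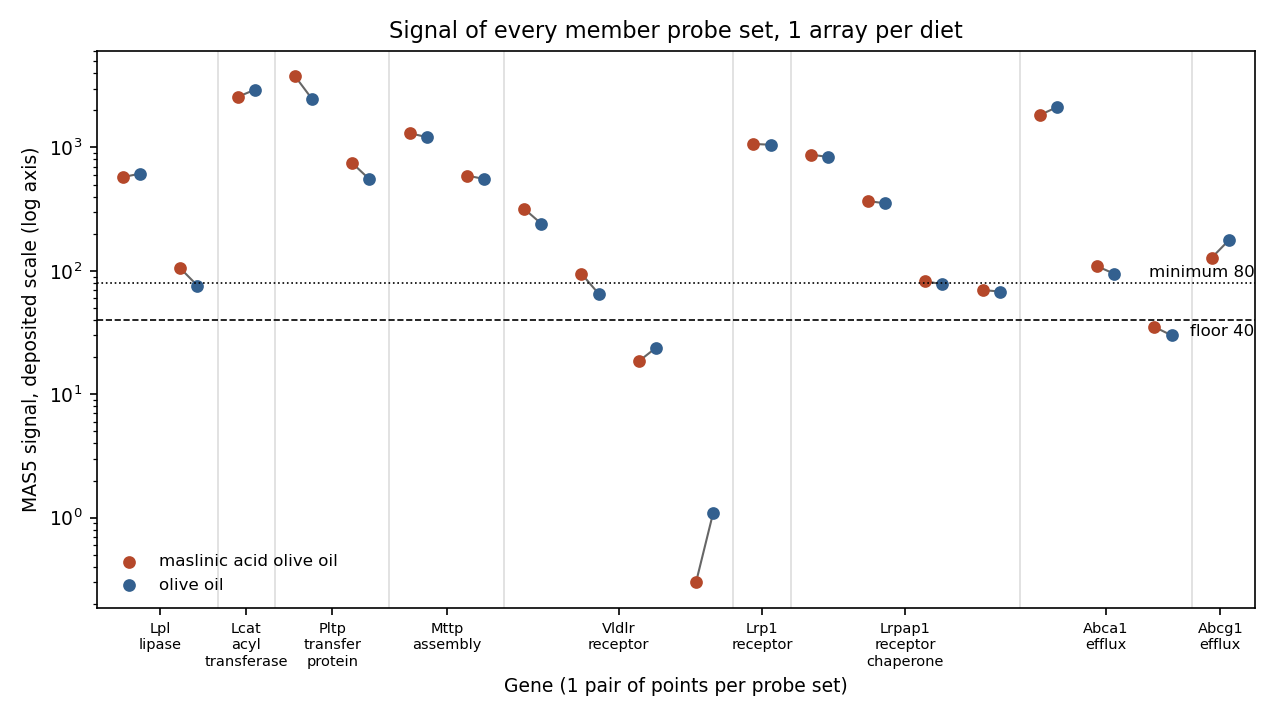
MAS5 signal (vertical, log axis) of each of the 20 probe sets of the 9 genes, ordered by role, with the maslinic acid array at the left of each pair and the olive oil array at the right. Both Pltp pairs slope down to the olive oil array, while the brightest Abca1 pair (1830.0 on the maslinic acid array, 2123 on the olive oil array) slopes up, and 3 probe sets of Vldlr and Abca1 lie under the floor of 40 on both arrays.

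Pltp encodes the phospholipid transfer protein of plasma, which moves surface phospholipid from triglyceride-rich particles to high density lipoprotein and enlarges those particles. Its brighter probe set, 1456424_s_at, gave a signal of 3787 on the maslinic acid array and 2467 on the olive oil array. Its other probe set, 1417963_at, had 747.6 on the maslinic acid array and 552.2 on the olive oil array. Both were thus higher on the maslinic acid array, by 1.54-fold and 1.35-fold, with log2 ratios of 0.62 and 0.44. Only the brighter reading passed 1.5-fold, and its suffix, _s_at, marks probes that may bind more than 1 transcript.

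Of the 9 genes, Pltp lay furthest out among measured genes of like signal. It ranked number 73 from the top among all 5911 measured genes. Among the 360 genes with a mean signal of 2560 or more it ranked number 3. The 5th and 95th percentiles of the log2 ratio in that band were -0.24 and 0.15. The dimmer Pltp probe set, at 0.44, also lay above the 95th percentile of its own band, which was 0.26.

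Lcat encodes the lecithin:cholesterol acyltransferase, secreted by hepatocytes, which esterifies the cholesterol of high density lipoprotein. Its single probe set read 2566 on the maslinic acid array and 2934 on the olive oil array, a log2 ratio of -0.19. That is 1.14-fold lower, within the central 90% of the band it shares with Pltp. At the deposited scaling the ratio was close to the median of the hepatocyte markers, and the part of their shift in this value was not tested. The log2 ratios of Pltp and Lcat, which act on the same particles, differed by 0.81.

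Lpl encodes lipoprotein lipase, the triglyceride hydrolase of capillaries in muscle and fat, which adult liver makes at a low level. Its brighter probe set, 1415904_at, read 575.3 on the maslinic acid array and 613.4 on the olive oil array, a log2 ratio of -0.09. The dimmer probe set, 1431056_a_at, had 105.0 on the maslinic acid array and 75.8 on the olive oil array, a log2 ratio of 0.47. The probe sets thus disagreed in sign, with an SD of 0.40 between them, the widest spread of any of the 6 genes with several measured probe sets. The dimmer probe set reached the minimum of 80 on the maslinic acid array alone, where it was higher. Its ratio lay above the 95th percentile of its band, which was 0.44, but passing in that way makes this no support for a difference.

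Fat and muscle are the main sources of Lpl in the body, so markers of both are given beside it. The adipocyte list had values for 5 of 7 markers, with a summed signal of 394.9 on the maslinic acid array and 323.9 on the olive oil array. Fabp4, a fatty acid binding protein of adipocytes that macrophages and endothelium also make, was the only one measured, at 355.6 on the maslinic acid array and 263.9 on the olive oil array. Cidec, Lep and Retn lay under the floor on both arrays. All 7 muscle markers, among them Ckm and Acta1, lay under the floor.

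Mttp encodes the large subunit of microsomal triglyceride transfer protein, which lipidates apolipoprotein B as it is made. Its probe set 1419400_at had a signal of 1305 on the maslinic acid array and 1213 on the olive oil array, and 1419399_at had 591.3 on the maslinic acid array and 555.9 on the olive oil array. Both readings were slightly higher on the maslinic acid array, with log2 ratios of 0.11 and 0.09. The SD between them was 0.01, and the 3 measured probe sets of Lrpap1 agreed as closely, also with an SD of 0.01. The size of both Mttp ratios was under the pooled SD of 0.23, within the spread between probe sets of 1 gene.

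Vldlr encodes an endocytic receptor for very low density lipoprotein that binds particles rich in apolipoprotein E and is scarce in normal liver. Its brightest probe set, 1434465_x_at, had a signal of 318.6 on the maslinic acid array and 240.9 on the olive oil array. The probe set 1417900_a_at had 94.8 on the maslinic acid array and 65.3 on the olive oil array, and so reached the minimum on the maslinic acid array alone. Both were higher on the maslinic acid array, by 1.32-fold and 1.45-fold, with log2 ratios of 0.40 and 0.54.

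The remaining Vldlr probe sets gave no ratio. The probe set 1442169_at read 18.5 on the maslinic acid array and 23.8 on the olive oil array, and 1451156_s_at read 0.3 on the maslinic acid array and 1.1 on the olive oil array. All 4 of these signals lay under the floor of 40, where signals have no order. Among the 1548 genes with a mean signal between 160 and 320, Vldlr ranked number 48 from the top, and the 95th percentile of that band was 0.34. The dimmer measured Vldlr probe set, at 0.54, lay above the 95th percentile of its own band, 0.44. That probe set passed the minimum only through the maslinic acid array, where it was higher, so its place there is no further support. The suffix _x_at of the brightest Vldlr probe set marks probes that may also bind transcripts of other genes.

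Lrp1 encodes a large endocytic receptor by which hepatocytes take up remnant particles. Its single probe set read 1068 on the maslinic acid array and 1051 on the olive oil array, a log2 ratio of 0.02. Lrp1 was the middle gene of the 9 and lay close to the median of all measured genes. The log2 ratios of Vldlr and Lrp1 differed by 0.38.

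Lrpap1 encodes the receptor-associated protein, a chaperone of the endoplasmic reticulum that keeps Lrp1 and its relatives from binding ligands before they reach the cell surface. Its brightest probe set, 1436609_a_at, had a signal of 875.9 on the maslinic acid array and 837.1 on the olive oil array. The probe set 1426696_at had 367.8 on the maslinic acid array and 352.5 on the olive oil array. The dimmer 1426697_a_at had 82.5 on the maslinic acid array and 77.8 on the olive oil array, and 1452148_at, under the minimum on both arrays, had 69.9 on the maslinic acid array and 68.0 on the olive oil array. All 4 readings were higher on the maslinic acid array, but by little, with log2 ratios from 0.04 to 0.08. The chaperone and its client Lrp1 differed in log2 ratio by 0.04, less than the SD between probe sets.

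**Figure D2:**
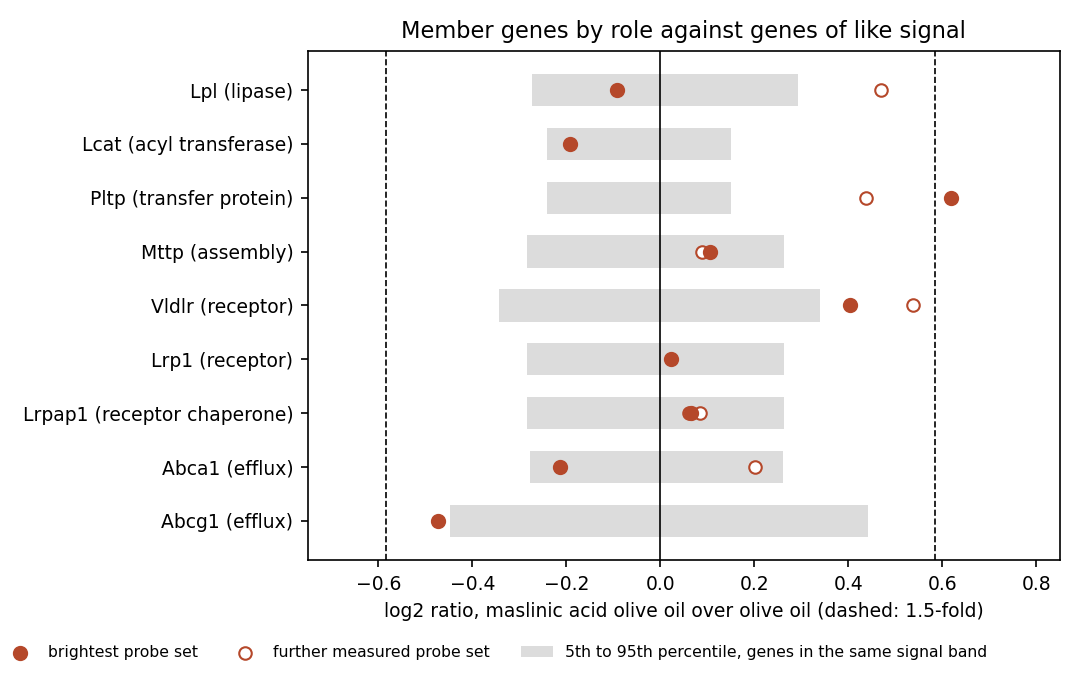
Log2 ratio of the maslinic acid array over the olive oil array for each gene, ordered by role, with the brightest probe set filled and further measured probe sets open. Grey bars span the 5th to 95th percentile of measured genes in the signal band of the brightest probe set, and the filled points of Pltp (0.62), Vldlr (0.40) and Abcg1 (-0.47) lie outside their bars.

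Abca1 encodes the transporter that passes cholesterol and phospholipid to lipid-poor apolipoprotein A-I, the step that founds high density lipoprotein. Its bright probe set, 1421840_at, had a signal of 1830.0 on the maslinic acid array and 2123 on the olive oil array, a log2 ratio of -0.21. The probe set 1421839_at had 108.9 on the maslinic acid array and 94.7 on the olive oil array, a log2 ratio of 0.20. The third probe set, 1450392_at, read 35.1 on the maslinic acid array and 30.0 on the olive oil array, both under the floor. Abca1 was therefore 1.16-fold lower by its bright probe set and 1.15-fold higher by the dimmer one, and both ratios lay within the central 90% of genes of like signal.

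Abcg1 encodes a transporter that adds cholesterol to high density lipoprotein already formed and is prominent in macrophages. Its single probe set read 127.8 on the maslinic acid array and 177.5 on the olive oil array. That is 1.39-fold lower, a log2 ratio of -0.47, the lowest of the 9 genes. Among the 1735 genes with a mean signal between 80 and 160 it ranked number 78 from the bottom, just under the 5th percentile of -0.45. No second probe set was available to repeat the reading.

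Macrophage and Kupffer cell markers, given beside Abcg1, did not lie to one side. Of 12 measured, 6 were higher and 6 lower, with a median log2 ratio of -0.01. Over all 13 markers with a value the summed signal was 12950 on the maslinic acid array and 13059 on the olive oil array. Marco, a scavenger receptor, had a signal of 84.6 on the maslinic acid array and 338.1 on the olive oil array, while Cd5l, the brightest marker, had 2363 on the maslinic acid array and 2716 on the olive oil array. Endothelial markers were all lower on the maslinic acid array by their brightest probe sets, in 7 of 7 measured, with a median log2 ratio of -0.12. Eng also had a measured probe set at 0.007. Over all 10 endothelial markers the summed signal was 2679 on the maslinic acid array and 2961 on the olive oil array. Kdr, a receptor for vascular endothelial growth factor, had 174.0 on the maslinic acid array and 245.0 on the olive oil array, and the brightest marker, Clec4g, had 1181 on the maslinic acid array and 1247 on the olive oil array. Lymphocyte markers had a summed signal of 1376 on the maslinic acid array and 774.4 on the olive oil array over 8 genes. Of these, 2 were measured. Ighm, an immunoglobulin gene on which the higher sum rests, had 936.2 on the maslinic acid array and 322.9 on the olive oil array. Its 3 measured probe sets had log2 ratios from 0.49 to 1.54. Ptprc had 333.4 on the maslinic acid array and 367.0 on the olive oil array. Stellate cell markers were higher in 7 of 9 measured, with a median log2 ratio of 0.21, while 47.8% of all measured genes were higher. Over all 12 stellate cell markers the summed signal was 5295 on the maslinic acid array and 5265 on the olive oil array. Acta2 had 165.9 on the maslinic acid array and 130.3 on the olive oil array, and Dcn 1810 on the maslinic acid array and 2067 on the olive oil array. The part of these cell types in the values of Abcg1, Abca1, Lpl, Pltp and Vldlr was not tested.

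**Figure D3:**
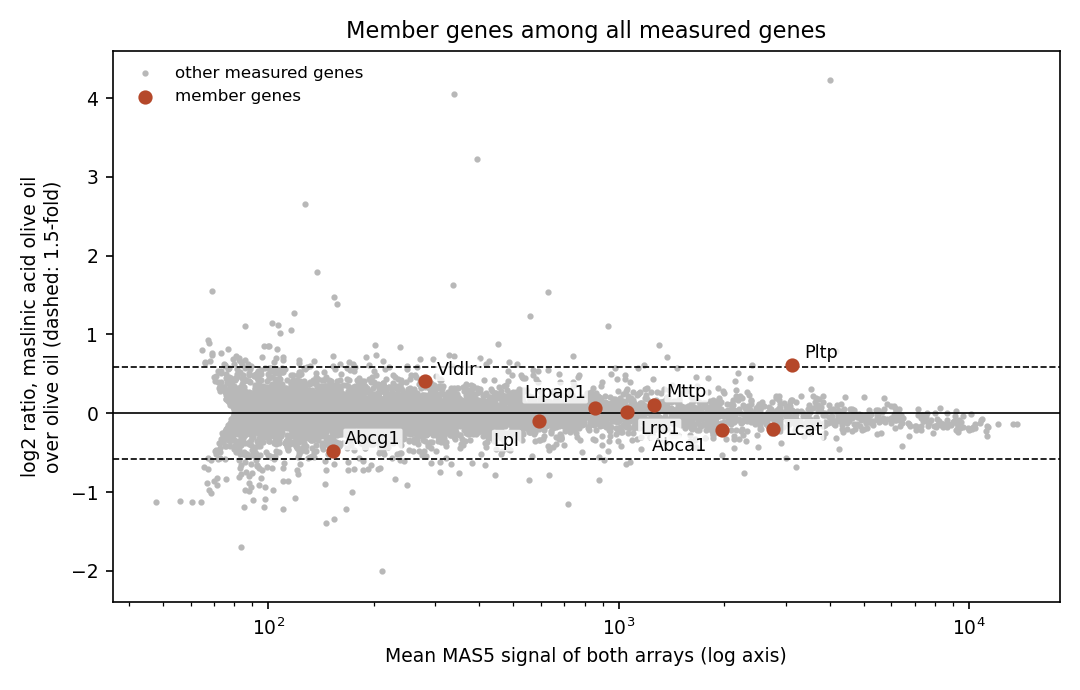
Log2 ratio of the maslinic acid array over the olive oil array (vertical) against the mean signal of both arrays (horizontal, log axis) for the 5911 measured genes, with the 9 genes in red and dashed lines at 1.5-fold. Ratios scatter less at high signal, so that Pltp at 0.62 lies above most genes of like signal. Apoa4, with a mean signal of 2409, lies close beside it, also at 0.62. Abcg1 at -0.47 sits at the edge of the cloud of dim genes.

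The promoters of Pltp and Vldlr are shown because these genes had the highest ratios, and that of Abca1 because its liver X receptor element is a textbook case. The sequences are the 250 bases before an annotated start in RefSeq, build GRCm38.p6, 5′ to 3′ on the strand of the gene. Capitals mark matches, on either strand, to the motifs spelled out below. RefSeq lists 2 starts for Vldlr, and both windows are shown.
Abca1, chr4:53159896-53160145, minus strand: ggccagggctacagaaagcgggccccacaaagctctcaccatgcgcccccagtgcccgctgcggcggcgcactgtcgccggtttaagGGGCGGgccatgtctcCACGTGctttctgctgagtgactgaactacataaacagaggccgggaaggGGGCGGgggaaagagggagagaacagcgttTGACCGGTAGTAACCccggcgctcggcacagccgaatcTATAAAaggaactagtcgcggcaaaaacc
Pltp, chr2:164857709-164857958, minus strand: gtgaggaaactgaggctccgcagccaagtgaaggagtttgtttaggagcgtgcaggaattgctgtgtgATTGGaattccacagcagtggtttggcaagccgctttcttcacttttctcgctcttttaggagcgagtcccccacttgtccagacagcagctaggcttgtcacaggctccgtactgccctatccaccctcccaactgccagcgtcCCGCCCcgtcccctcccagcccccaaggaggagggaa
Vldlr, first start, chr19:27216234-27216483, plus strand: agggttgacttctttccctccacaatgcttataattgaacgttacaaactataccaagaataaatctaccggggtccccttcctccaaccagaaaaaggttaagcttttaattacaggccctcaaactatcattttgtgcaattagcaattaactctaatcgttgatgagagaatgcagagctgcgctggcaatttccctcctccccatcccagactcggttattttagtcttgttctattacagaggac
Vldlr, second start, chr19:27216770-27217019, plus strand: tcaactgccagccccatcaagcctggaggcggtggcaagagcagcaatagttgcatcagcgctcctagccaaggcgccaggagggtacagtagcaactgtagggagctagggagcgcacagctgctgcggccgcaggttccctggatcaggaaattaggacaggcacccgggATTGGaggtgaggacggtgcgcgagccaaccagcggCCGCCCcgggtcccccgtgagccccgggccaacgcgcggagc

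Promoter windows were matched for 7 of the 9 genes, 8 windows in all, beside 32851 windows of the same length. The Abca1 window holds a direct repeat with 4 bases between its repeated units, of the kind that binds liver X receptors with their retinoid X receptor partner. It was searched as GGTTANNNNNGGTCA, letters chosen after the Abca1 window had been read, and lies in reverse 67 bases before the start. Of all windows 0.0457% hold these letters, and the other member windows do not. The stricter repeat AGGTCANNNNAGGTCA occurs in 0.0152% of all windows, and the inverted repeat AGGTCANTGACCT of the farnesoid X receptor in 0.00609%, but in none of the 8. The sterol regulatory element TCACNCCAC is also in none of the 8 and in 1.05% of all windows.

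General promoter motifs were searched as well. The GC box GGGCGG is in windows of 5 of the 7 genes, Pltp, Vldlr, Abca1, Lrp1 and Lrpap1, and in 32.7% of all windows. The CCAAT box CCAAT is in windows of Pltp, Vldlr and Lcat and in 33.8% of all windows. Abca1 alone of the 7 holds TATAAA, 29 bases before the start, as do 12.4% of all windows, and CACGTG, as do 6.02%. At Vldlr the GC and CCAAT boxes lie before the second start. None of these motifs overlaps another in the windows shown. A match describes the letters of a window and is no evidence of binding in these livers.

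Other genes of the same pathways were read from 6 lists, with the 9 genes left out. The counts of higher and lower genes stand beside 47.8% of all measured genes being higher. Among lipases and their cofactors and inhibitors, 4 of 8 measured genes were higher and 4 lower, with a median log2 ratio of 0.003. Apoc2, the activator of lipoprotein lipase, had 3279 on the maslinic acid array and 2913 on the olive oil array, and Apoa5, another helper of lipolysis, had 7383 on the maslinic acid array and 8022 on the olive oil array. The proprotein convertase gene Pcsk6 had 370.6 on the maslinic acid array and 318.6 on the olive oil array, and its relative Pcsk5 had 80.4 on the maslinic acid array and 51.5 on the olive oil array. Pcsk5 was the only gene of the list at least 1.5-fold apart, at 1.56-fold higher, beside 1.47% of all measured genes. It barely reached the minimum, and only on the maslinic acid array, where it was higher. Lipc was not analysed here.

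In the assembly of apolipoprotein B particles, beside Mttp, 6 of 9 measured genes were higher and 3 lower, with a median log2 ratio of 0.08 and none at least 1.5-fold apart. Apob itself had 6068 on the maslinic acid array and 7430 on the olive oil array, a log2 ratio of -0.29, opposite in sign to Mttp. Sort1, a sorting receptor that binds apolipoprotein B, had 73.9 on the maslinic acid array and 106.2 on the olive oil array. Tm6sf2, a gene of lipid loading, had 438.0 on the maslinic acid array and 392.3 on the olive oil array, and the editing enzyme gene Apobec1 had 86.7 on the maslinic acid array and 75.9 on the olive oil array.

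Among lipoprotein receptors and their adaptors, beside Vldlr and Lrp1, 4 of 10 measured genes were higher and 6 lower, with a median log2 ratio of -0.04. Sorl1, a sorting receptor related to Lrp1, was the only one at least 1.5-fold apart. It had 125.6 on the maslinic acid array and 69.3 on the olive oil array, 1.81-fold higher. Its 1 measured probe set reached the minimum on the maslinic acid array alone, where it was higher. Of all measured genes, 1.47% were at least 1.5-fold higher. Mylip, a ubiquitin ligase that degrades lipoprotein receptors including Vldlr, had 165.6 on the maslinic acid array and 215.6 on the olive oil array, a log2 ratio of -0.38. Scarb1, the high density lipoprotein receptor, had 982.5 on the maslinic acid array and 930.0 on the olive oil array, with all 3 of its measured probe sets between 0.05 and 0.08 in log2 ratio. Sdc1, a heparan sulphate proteoglycan that binds remnants, had a log2 ratio of 0.15 by the brightest of its 4 measured probe sets, and Lrp6 of -0.12. The related receptor genes Lrp2 and Lrp8 lay under the floor on both arrays.

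Among genes of high density lipoprotein and cholesterol transport, 6 of 10 measured were higher and 4 lower, with a median log2 ratio of 0.03, and Apoe was the only one at least 1.5-fold apart. Apoa1, which accepts the lipid exported by Abca1, had 13030 on the maslinic acid array and 14330 on the olive oil array, a log2 ratio of -0.14. Apoa2 lay at -0.17 and the sterol transporter gene Abcg5 at -0.26.

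The liver X receptor and its other targets bear on Abca1, Abcg1, Lpl and Pltp, which are targets of the same receptors. Of 11 measured genes 4 were higher and 7 lower, with a median log2 ratio of -0.13 and none at least 1.5-fold apart. The median was -0.05 with quantile normalization, with the same counts of higher and lower genes. The receptor gene Nr1h3 had 406.9 on the maslinic acid array and 331.8 on the olive oil array, and its partner Rxrb had 182.4 on the maslinic acid array and 269.2 on the olive oil array. Srebf1, the regulator of fatty acid synthesis, had 1403 on the maslinic acid array and 1791 on the olive oil array, a log2 ratio of -0.35. Pltp, at 0.62 and 0.44 by its probe sets, was higher than every measured gene of that list. The highest of the list was the receptor gene Nr1h3, at 0.29. The part of liver X receptors in the Pltp values was not tested.

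The farnesoid X receptor and its other targets are set beside Pltp and Vldlr. Of 7 measured genes 5 were higher and 2 lower, with a median log2 ratio of 0.01 and none at least 1.5-fold apart. Nr0b2, the repressor induced by the receptor, had 430.5 on the maslinic acid array and 485.6 on the olive oil array. Abcb11, the bile salt export pump, had 2506 on the maslinic acid array and 2762 on the olive oil array. Of the higher genes, Apoc2 had a log2 ratio of 0.17 and Sdc1 of 0.15. The 4 measured probe sets of Sdc1 ran from -0.0006 to 0.26. Fetub, at 0.005, and Kng1, at 0.006, were also counted as higher, though another measured probe set of Kng1 lay at -0.19. The plot of pathway genes sets all 6 lists beside the 9 genes.

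**Figure D4:**
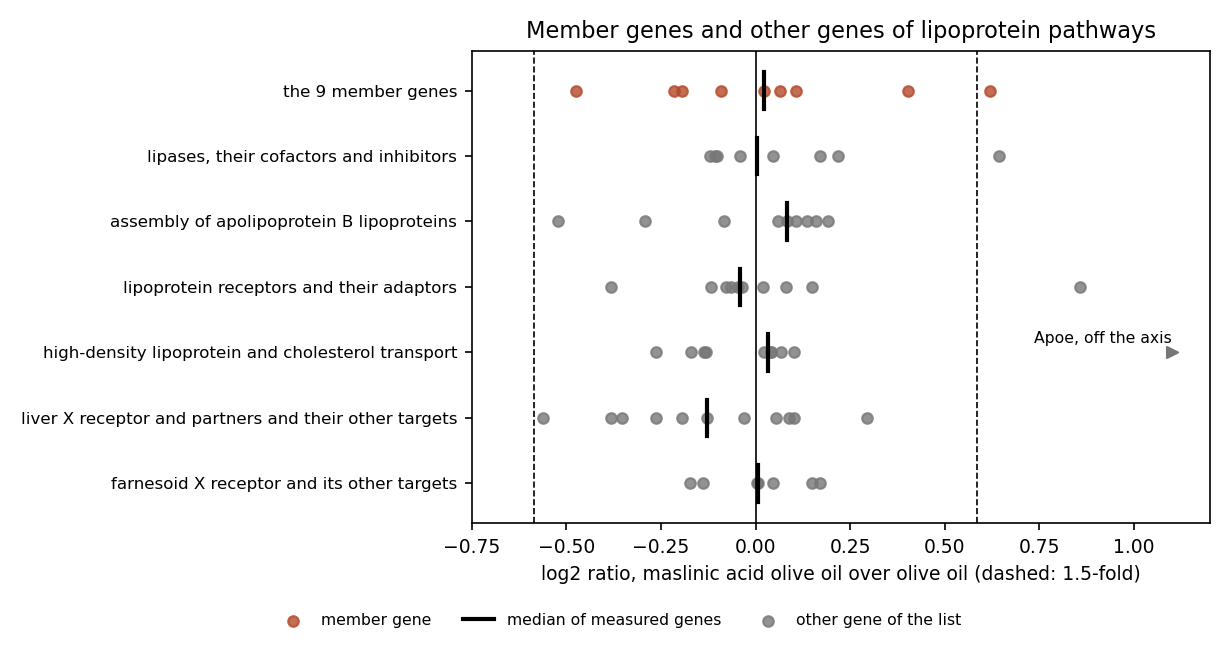
Log2 ratio of the maslinic acid array over the olive oil array for the 9 genes (red) and for the measured genes of 6 pathway lists (grey), with medians as black bars and dashed lines at 1.5-fold. Medians run from -0.13 (liver X receptor list) to 0.08 (assembly list), most points lie between the dashed lines, and Apoe at 4.23 lies off the axis.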

How the data were processed

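Total liver RNA was labelled and hybridised to 1-colour Affymetrix arrays, 1 array per diet. The deposited values are intensities per probe set, made by the authors with MAS5, as named without a version in the submitters' processing notes. Settings and detection calls were not used here. The deposited intensities have a 2% trimmed mean of 200.1 on each array, so no further scaling was applied. Genes were named from the platform annotation, and all 9 matched a RefSeq gene by Entrez number. Controls were left out.

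Log2 ratios are maslinic acid over olive oil. Signals under 40 were set to 40 for the ratio. A gene is its brightest probe set, measured where that reached 80 on at least 1 array. With 1 array per diet there is no test and no error between mice. Because dim MAS5 signals scatter more, each ratio was set against genes of like signal, in bands that double from 80.

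The genes and lists were chosen with earlier results of these data known. All 9 genes are named. Each pathway list adds its 4 largest absolute ratios and Apoe, Scarb1, Apob and Lipc, where measured, and each marker list its brightest and its most shifted gene. Other names were chosen after their values were seen. They are the pathway genes Lrp2, Lrp8, Fetub and Kng1, the bright gene Apoa4 and the markers Ckm, Acta1, Cidec, Lep, Retn and Ptprc. Alternatives were 3 scalings, other floors and minimums, the mean over probe sets, and removal of _x_at and _s_at probe sets. The steps were checked on simulated data. Python 3.11.15 with statsmodels 0.14.6 was used.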

Additional observations from a re-analysis of the deposited data

How the results depend on the processing

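No paired analysis was possible because only 1 array per diet exists here, which also means that no array could be left out. The 5 alternatives of floor and minimum could not move the log2 ratios of the 9 genes, whose brightest probe sets lie above 80 on both arrays, and those 45 values were identical. Of 45 values under the scaling and probe set alternatives, 44 moved by less than the SD between probe sets. The exception was Lpl, at 0.19 with the mean of its measured probe sets, the only one of these ratios whose sign turned. Some of the 45 could not move. Lcat, Lrp1 and Abcg1 have 1 probe set to average, and removal of _x_at and _s_at probe sets touched only Pltp and Vldlr. Abca1 counts as moved by less than the SD, yet went from -0.21 to -0.006 with the mean of its measured probe sets. Pltp ranged from 0.44 to 0.66 and Vldlr from 0.39 to 0.54. The 0.54 came with _x_at and _s_at probe sets removed, from a dimmer Vldlr probe set that reached the minimum on the maslinic acid array alone. The count of the 9 genes at least 1.5-fold higher was 0 with the mean of all measured probe sets and 0 with _x_at and _s_at probe sets removed, since Pltp then rests in part or in whole on its dimmer probe set. Over all measured genes, 87 were at least 1.5-fold higher and 93 lower at the main settings, out of 5911. With a minimum of 160 these counts were 45 and 40, but out of only 4169 measured genes. With a floor of 80 they were 61 and 59, out of 5911. Under the alternatives the list medians ranged from -0.14 to -0.05 for the liver X receptor list and from 0.03 to 0.12 for the assembly list. They ranged from -0.19 to -0.07 for hepatocyte markers and from 0.13 to 0.21 for stellate cell markers. Those of the lipase, high density lipoprotein, farnesoid X receptor and macrophage lists lay on either side of 0, between -0.04 and 0.05, and so have no settled sign. Detection calls were not used, so dim probe sets such as those of Vldlr and Lpl are limited by signal alone.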

Other observations

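Among genes as bright as Pltp, smaller shares were 1.5-fold apart than among all measured genes. Of 360 measured genes with a mean signal of 2560 or more, 0.833% were at least 1.5-fold higher and 0.278% lower. The shares of all measured genes were 1.47% and 1.57%. In that band 4 genes were at least 1.5-fold apart, and they are named here after their values were seen. Apoe was highest, followed by the sulphotransferase gene Sult2a2, with 5268 on the maslinic acid array and 3060 on the olive oil array, 1.72-fold higher. Pltp came next. Igfbp1, an insulin-repressed binding protein of the liver, was the only one lower, with 2461 on the maslinic acid array and 3953 on the olive oil array, 1.61-fold lower. The band is set on the mean of both arrays, and Apoe, Pltp and Igfbp1 were each under 2560 on 1 array. Just under the band, Apoa4 had 2915 on the maslinic acid array and 1903 on the olive oil array. Its log2 ratio was 0.62, like that of Pltp.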
